A study of Mus musculus with 18 samples.

Results

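The genes described here are the 127 mouse protein-coding genes whose symbol is Zfp with a number between 700 and 999, of 21887 protein-coding genes on the nuclear chromosomes. The rule uses the symbol and no measured value, but the number range was proposed with earlier results of these data known. Most lie on chromosomes 7 (25 genes), 17 (21), 4 and 8 (14 each), 2 (12) and 13 (10). Chromatin accessibility was measured by ATAC-seq, in which a transposase cuts and tags open DNA, in epithelial cells sorted from lungs of adult C57BL/6 mice of 6 to 12 weeks. The cells were negative for CD31 and CD45, positive for Epcam and Sca-1, and split by CD24 into negative (CD24neg), low (CD24low) and high (CD24high) populations. Mice had received an inhibitor of G9a (G9ai) or vehicle, with 3 mice per arm. Of the 10 libraries with peak lists, 6 were G9ai, replicates 2 and 3 of every population. On the vehicle side CD24low had the same replicate numbers, while CD24neg and CD24high each had replicate 3 alone and so have no replicate check.

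Most genes of this kind encode C2H2 zinc finger proteins, whose fingers read DNA, and many carry a KRAB domain that binds the corepressor Trim28 (KAP1). Trim28 brings in the histone methyltransferase Setdb1, which trimethylates lysine 9 of histone H3, and the best studied targets are endogenous retroviruses. The genes arise by tandem duplication and lie in clusters, and in human and mouse cells the clusters themselves carry H3K9 methylation. G9a, encoded by Ehmt2, places mono- and dimethylation on the same lysine.

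Scores below are those the authors gave each peak, on a scale that is not given. Percentiles rank them within a list. Genes are ordered by the mean score over the libraries of an arm, which can mix lists of different scale. The lists held between 2552 and 12985 peaks, while the numbers in their peak names ran up to 60603 to 98001 per library, so the lists appear to hold a minority of the called peaks. The rule that selected them is not stated. Arm-only below therefore means listed in a single arm, and list length is no measure of how much chromatin was open. Replicate lists shared 98.2% to 99.6% of their peaks, whereas lists of different arms within a population shared 0.136% to 3.62%. The agreement of replicates is thus a property of the deposited lists, and chromatin open under both treatments can be missing from every list. Among the sort markers, Epcam, Ly6a (Sca-1) and Cd24a held no listed region in any population, so the lists cannot check the gate. Pecam1 (CD31) held 4 G9ai-only regions in CD24low and a vehicle-only region in CD24neg and in CD24high, and Ptprc (CD45) held a vehicle-only region in CD24neg. The part of endothelial or blood cells in the values below was not tested.

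Of the 111 genes with a promoter in the RefSeq table (GRCm38.p6; 250 bases before to 50 after the annotated start), 23 had a listed region on that window in some population (20.7%, 12.4 genes expected from length). Over all genes of the table the share was 10.6%, and of the 194 Zfp genes numbered below 700 it was 24 (12.4%, 21 expected). The promoters of 7 of them are shown 5′ to 3′ on the gene's strand, with the bases inside a listed region in capitals. Zfp974 had G9ai-only regions in all 3 populations and Zfp882 regions of opposite arms in CD24neg and CD24low. Zfp773 had the G9ai-only region of highest mean score in CD24low, and Zfp943 and Zfp758 are copies whose regions in CD24low lay in opposite arms. Zfp819 and Zfp799 stand for promoters with vehicle-only regions, in CD24low and CD24neg.
Zfp974 (chr7:27929409-27929708, minus strand; G9ai-only in CD24low and CD24high): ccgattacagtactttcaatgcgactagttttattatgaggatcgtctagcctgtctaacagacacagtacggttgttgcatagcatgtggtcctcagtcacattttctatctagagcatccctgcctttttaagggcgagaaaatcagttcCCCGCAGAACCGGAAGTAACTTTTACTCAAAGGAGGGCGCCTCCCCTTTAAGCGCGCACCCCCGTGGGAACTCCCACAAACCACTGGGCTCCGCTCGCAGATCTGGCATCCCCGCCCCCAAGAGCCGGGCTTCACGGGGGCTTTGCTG
Zfp882 (chr8:71908356-71908655, plus strand; G9ai-only in CD24neg): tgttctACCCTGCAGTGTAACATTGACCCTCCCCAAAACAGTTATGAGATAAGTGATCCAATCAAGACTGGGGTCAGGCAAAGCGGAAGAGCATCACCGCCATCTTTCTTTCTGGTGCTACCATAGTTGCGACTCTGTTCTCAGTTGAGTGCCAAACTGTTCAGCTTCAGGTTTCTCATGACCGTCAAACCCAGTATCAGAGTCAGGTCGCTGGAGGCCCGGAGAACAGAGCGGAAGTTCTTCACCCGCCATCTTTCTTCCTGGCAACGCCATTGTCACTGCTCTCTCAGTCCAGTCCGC
Zfp773 (chr7:7136706-7137005, minus strand; G9ai-only in CD24low): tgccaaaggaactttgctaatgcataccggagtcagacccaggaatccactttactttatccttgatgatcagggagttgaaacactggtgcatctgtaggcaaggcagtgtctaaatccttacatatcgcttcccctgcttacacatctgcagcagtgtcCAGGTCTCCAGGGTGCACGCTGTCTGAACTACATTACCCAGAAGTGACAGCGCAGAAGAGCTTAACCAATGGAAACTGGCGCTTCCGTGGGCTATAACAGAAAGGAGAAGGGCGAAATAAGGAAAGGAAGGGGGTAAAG
Zfp943 (chr17:21962309-21962608, plus strand; G9ai-only in CD24low): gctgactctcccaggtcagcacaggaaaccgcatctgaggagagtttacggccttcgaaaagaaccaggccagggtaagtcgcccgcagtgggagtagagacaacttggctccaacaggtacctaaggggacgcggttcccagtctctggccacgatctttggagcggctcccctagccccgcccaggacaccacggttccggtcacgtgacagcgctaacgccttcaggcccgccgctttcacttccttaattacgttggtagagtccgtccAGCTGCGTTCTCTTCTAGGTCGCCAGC
Zfp758 (chr17:22361213-22361512, plus strand; vehicle-only in CD24low and CD24neg): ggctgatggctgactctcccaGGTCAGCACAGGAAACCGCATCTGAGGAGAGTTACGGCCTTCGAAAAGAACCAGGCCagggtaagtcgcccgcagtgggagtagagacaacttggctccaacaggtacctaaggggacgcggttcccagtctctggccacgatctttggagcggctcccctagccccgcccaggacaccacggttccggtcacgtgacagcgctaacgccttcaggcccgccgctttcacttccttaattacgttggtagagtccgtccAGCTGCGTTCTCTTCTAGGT
Zfp819 (chr7:43606919-43607218, plus strand; vehicle-only in CD24low): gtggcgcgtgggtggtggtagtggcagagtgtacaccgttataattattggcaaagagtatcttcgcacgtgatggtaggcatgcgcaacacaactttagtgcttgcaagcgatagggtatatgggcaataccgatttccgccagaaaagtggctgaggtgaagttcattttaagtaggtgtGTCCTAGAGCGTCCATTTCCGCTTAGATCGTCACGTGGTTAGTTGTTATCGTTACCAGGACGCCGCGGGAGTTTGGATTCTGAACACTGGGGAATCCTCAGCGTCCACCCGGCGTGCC
Zfp799 (chr17:32830212-32830511, minus strand; vehicle-only in CD24neg): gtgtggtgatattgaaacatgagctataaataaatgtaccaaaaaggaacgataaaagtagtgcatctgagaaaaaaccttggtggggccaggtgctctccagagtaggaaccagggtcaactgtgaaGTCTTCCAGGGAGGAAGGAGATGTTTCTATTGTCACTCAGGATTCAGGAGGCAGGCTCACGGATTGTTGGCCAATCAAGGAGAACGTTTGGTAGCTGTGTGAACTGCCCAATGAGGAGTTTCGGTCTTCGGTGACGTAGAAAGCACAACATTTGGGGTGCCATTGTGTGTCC

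Of the 127 genes, 46 held a region specific to an arm in at least 1 population and 81 held none. That is 36.2% of the genes, against 43.7% of all protein-coding genes, and 59.3 genes would be expected from their lengths. Their median length was 20613 bp, against 17169 bp for all genes. G9ai-only regions alone were seen in 14 genes, vehicle-only regions alone in 19, and regions of both arms in 13. The regions numbered 94, of which 3 lay in the windows of 2 of the genes and 8 also in that of a gene outside the group. They measured 57 to 607 bp (median 161).

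Split by population and arm, the counts lay near or under the background. In CD24neg, 14 of 127 genes held a G9ai-only region (11% of them, 12.5 expected from length), where 10.6% of all genes did. Vehicle-only regions lay in 16 (12.6%, 23.3 expected), beside 18.9% of all genes. In CD24low the G9ai-only count was 16 (12.6%, 19.8 expected), beside 15.9% of all genes, and the vehicle-only count 10 (7.87%, 9.27 expected), beside 7.44%. In CD24high, 6 genes held a G9ai-only region (4.72%, 9.45 expected), beside 8.01% of all genes. A vehicle-only region in CD24high was held by 19 (15%, 32.5 expected), beside 25% of all genes, the widest gap of the 6 sets. The 240 Zfp genes numbered below 700 gave 16 G9ai-only (23.1 expected) and 38 vehicle-only genes (42.2 expected) in CD24neg. They gave 34 (36 expected) and 12 (17.4 expected) in CD24low, and 17 (17.7 expected) and 51 (58.7 expected) in CD24high. They were under expectation for CD24neg G9ai-only and CD24low vehicle-only regions, where the genes 700 to 999 were over it, and nearer to expectation than those in the other 4 sets. Whether the genes 700 to 999 differ from them was not tested.

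**Figure D1:**
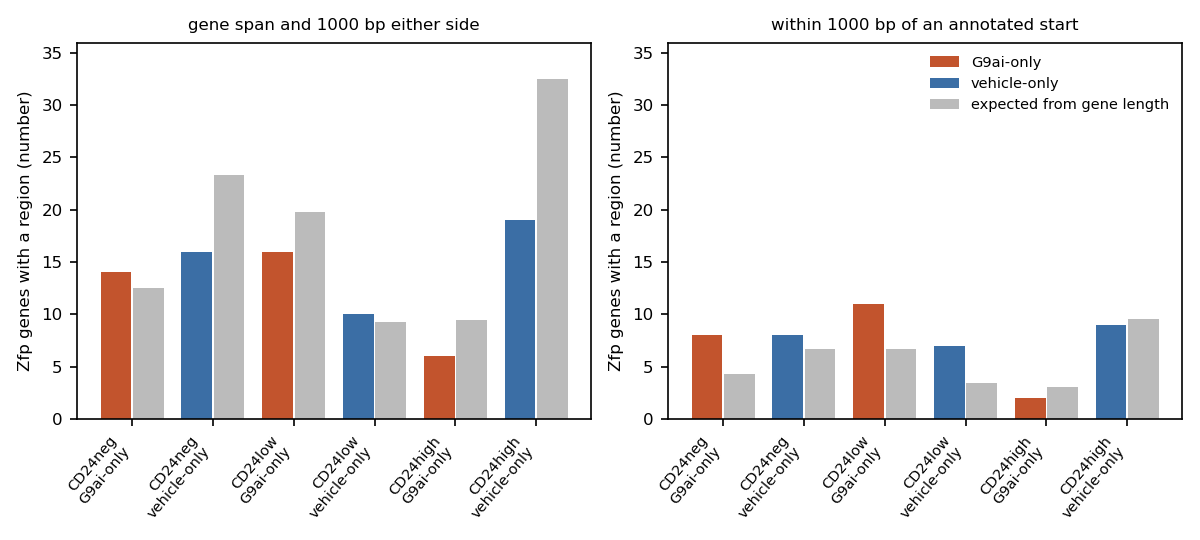
Number of Zfp genes 700 to 999 with an arm-only region, by population and arm (coloured bars), and the number expected from gene length (grey bars), for regions anywhere in the gene window (left) and within 1000 bp of an annotated start (right). In the gene window the vehicle-only bar of CD24high, 19 genes, stands under its expected 32.5; near starts the G9ai-only bar of CD24low, 11 genes, stands above its expected 6.64.

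As a share of the listed peaks, those in the 127 genes came to 3.59 and 3.62 per 1000 in the CD24neg G9ai libraries, against 2.25 in the vehicle library. In CD24low the shares were 2.30 and 2.31 per 1000 with G9ai, against 3.52 and 3.92 with vehicle. In CD24high they were 3.22 and 3.19 per 1000 with G9ai, against 1.85 with vehicle. In each population the higher share belonged to whichever arm had fewer listed peaks. With 2552 peaks taken from every list the means were 4.51 with G9ai and 2.35 with vehicle in CD24neg, 2.16 and 3.72 in CD24low, and 2.94 and 1.96 in CD24high, the same order. With peaks restricted to 1000 bp around gene ends the order turned in CD24high, with 0.712 per 1000 in G9ai and 1 in vehicle libraries. No share expected from gene length was computed for these values, and none for the Zfp genes below 700. Whether a share was high or low for genes of such length is therefore not known.

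**Figure D2:**
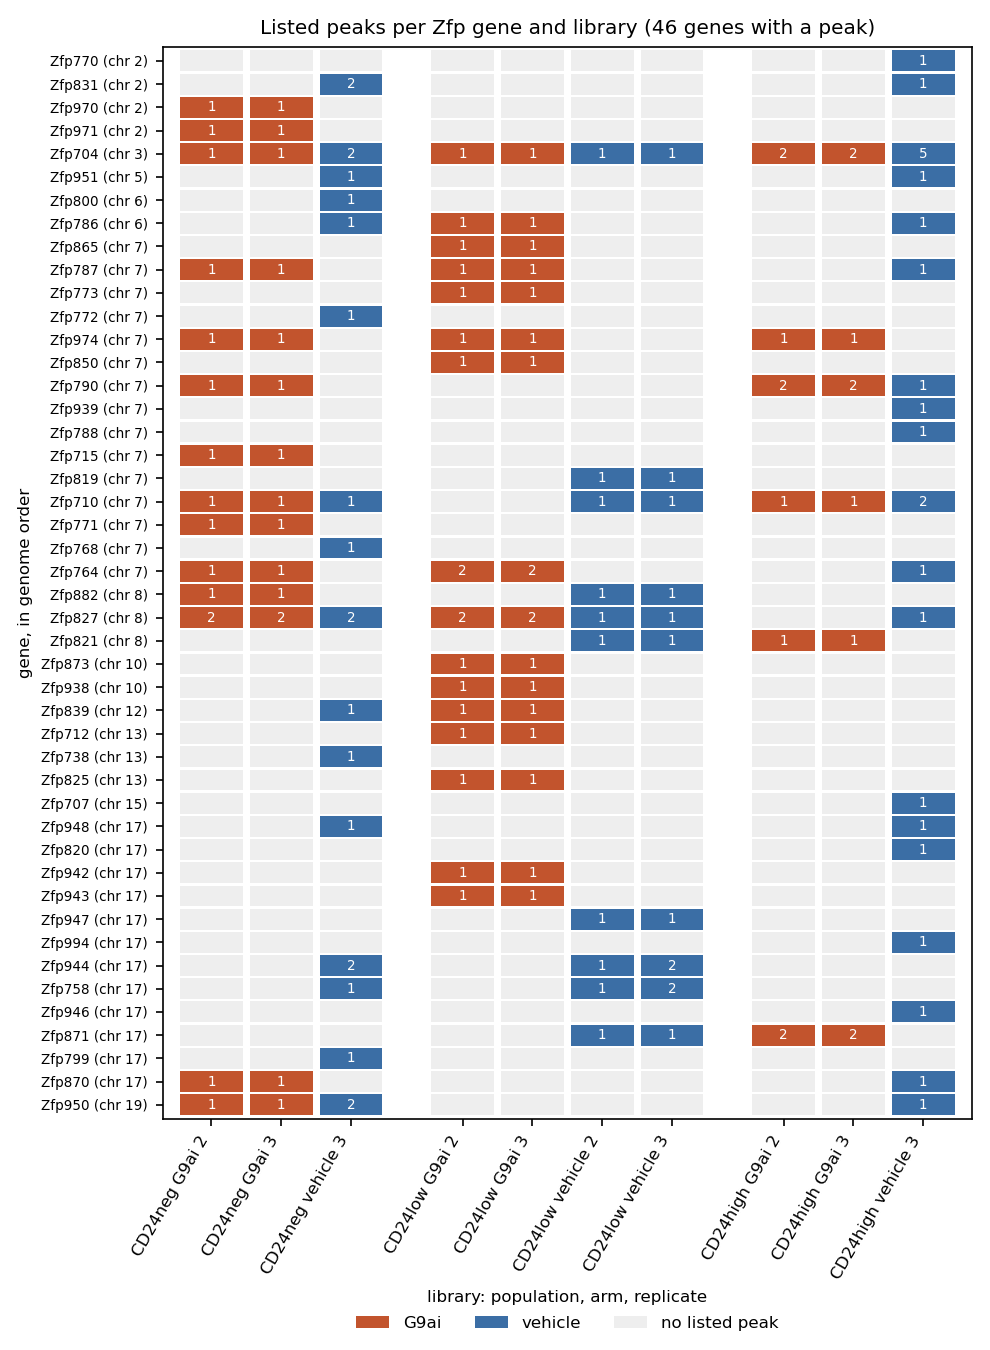
Listed peaks in the window of each of the 46 genes that hold any (rows, in genome order), in each of the 10 libraries (columns; G9ai in red, vehicle in blue, none in grey; the number is the count of peaks). Replicate libraries of an arm show the same genes, and 13 genes, such as Zfp704, Zfp710 and Zfp827, hold peaks of both arms.

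Pooled over populations, a larger share of regions lay near gene starts in these genes than in other genes. Of 36 G9ai-only links between a region and a gene with an annotated start, 21 had the region's centre within 1000 bp of a start (58.3%, 95% Wilson interval 42.2% to 72.9%). The share for other protein-coding genes was 28.1% of 7514 links, and 36.5% would be expected for genes of the same lengths. For vehicle-only regions the share was 24 of 42 (57.1%, interval 42.2% to 70.9%), against 23.2% of 13043 links of other genes, with 28.8% expected. The median distance was 381.5 bp for G9ai-only and 483 bp for vehicle-only regions, against 11456 bp and 13512 bp in other genes. Links of a population overlap in genes, so the intervals are too narrow. Of the links of Zfp genes below 700, pooled over populations, 59.5% of 42 G9ai-only and 48.6% of 72 vehicle-only ones lay within that distance, and the difference between the number ranges was not tested.

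By population the share near starts was highest in CD24low. There it was 11 of 16 G9ai-only links (68.8%, against 26% in other genes and 36.2% expected from length). For vehicle-only links it was 7 of 9 (77.8%, against 37.2% and 44.8%), where other genes also had their highest share of any set. The promoters shared by Zfp942 and Zfp943 and by Zfp944 and Zfp758 count for both genes. The share was lowest for the G9ai-only links of CD24high, 2 of 7 (28.6%), under other genes (32.5%) and the length expectation (34%). Counted as genes, 11 of the 111 genes had a G9ai-only region near a start in CD24low (9.91%, 6.64 expected from length), where 5.47% of all genes did, and 7 had a vehicle-only one (6.31%, 3.44 expected), where 2.98% did. In CD24neg the counts were 8 with G9ai-only regions (4.24 expected, 3.56% of all genes) and 8 with vehicle-only regions (6.72 expected, 5.84%). In CD24high they were 2 (3.06 expected, 2.77%) and 9 (9.51 expected, 7.76%). Among the 194 Zfp genes below 700 the populations differed: 1 had a G9ai-only region near a start in CD24neg (7.22 expected), 16 in CD24low (11.3 expected) and 8 in CD24high (5.41 expected). Their vehicle-only counts were 11 (11.3 expected), 4 (5.97 expected) and 20 (15.9 expected). Within 1000 bp of either end of the gene span lay 50% of 42 G9ai-only and 52.7% of 55 vehicle-only links, against 29.9% and 25.6% in other genes.

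**Figure D3:**
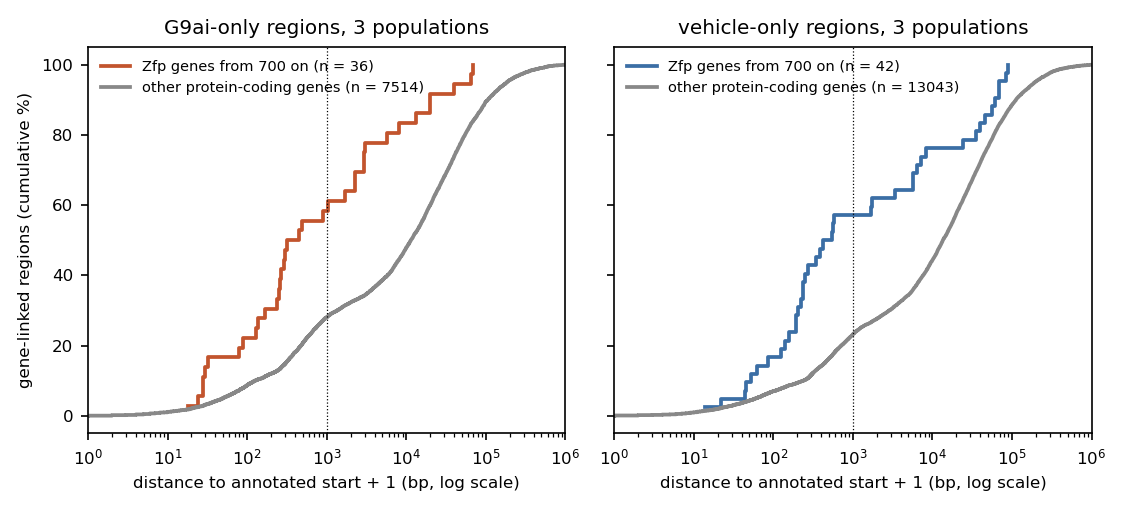
Cumulative share of gene-linked regions by the distance of the region's centre from the nearest annotated start of the gene (log scale; dotted line at 1000 bp), for Zfp genes 700 to 999 (coloured) and other protein-coding genes (grey), G9ai-only regions left and vehicle-only regions right. At 1000 bp the coloured curves stand at 58.3% and 57.1%, the grey curves at 28.1% and 23.2%.

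On the G9ai side, Zfp974 was the gene with G9ai-only regions, and no vehicle-only region, in all 3 populations. Its promoter region in CD24low (chr7:27929406-27929556) scored 76 and 85 in the G9ai libraries and was not listed in either vehicle library. In CD24high the same site (chr7:27929425-27929549) scored 143 and 61 with G9ai and was not listed with vehicle. In CD24neg the region (chr7:27929173-27929266, scores 104 and 90 with G9ai, none with vehicle) lay 239 bp from the start, inside the gene, and did not overlap the other 2. Zfp850, within 100 kb of it, had a G9ai-only promoter region in CD24low alone (scores 76 and 82).

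By mean score, the G9ai-only regions of Zfp764 and Zfp882 stood highest among these genes in CD24neg. The Zfp764 region (chr7:127386726-127387303) scored 102 and 387, at percentiles 79.3 and 99.4 of their lists, and lay inside the gene, 19808 bp from the start. In CD24low Zfp764 held another G9ai-only region on its promoter (chr7:127406748-127406958, scores 117 and 51), and in CD24high a vehicle-only one 426 bp from the start (score 99). Zfp882 scored 155 and 234 across its start (percentiles 96.1 and 98.2). Next by mean score came Zfp971, with scores of 45 and 328, so its replicates stood at percentiles 2.6 and 99.1 and did not rank alike. Percentiles gave another order. In replicate 2 Zfp870 (89.1) and Zfp771 (80.5) ranked above Zfp764, and in replicate 3 under it (59.4 and 65.3). Zfp970, on the same chromosome 2, had a promoter region too (scores 62 and 104), and Zfp870, Zfp771, Zfp715 and Zfp787 held others.

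In CD24low the G9ai-only region of Zfp773 (chr7:7136701-7136844) scored 160 and 108 and lay across the start. Zfp825 (scores 69 and 158), Zfp873 (49 and 142) and Zfp839 (46 and 70) came with the region's centre within 248 bp of a start. Each of them ranked higher in replicate 3, while Zfp773 stood at percentiles 90.2 and 89.7. The regions of Zfp825, Zfp873 and Zfp839 were absent from both vehicle lists. Zfp938 and Zfp712 also held G9ai-only regions within 1000 bp of a start. In CD24high the highest mean score belonged to Zfp704, 636 and 83 with G9ai (percentiles 99.9 and 48.4), inside a gene of 183076 bp. Zfp871 held 2 G9ai-only regions there, the one nearer the start (chr17:32787904-32788034) with scores of 180 and 132 (percentiles 95.2 and 85).

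On the vehicle side of CD24low the highest scores, 103 and 146, belonged to the shared promoter of Zfp758 and Zfp944, divergent neighbours on chromosome 17. Zfp819, which in mouse embryonic stem cells binds Trim28, had a vehicle-only region across its start (chr7:43607101-43607279) with scores of 74 and 94, and none in the G9ai lists. Zfp947 (scores 55 and 65) and Zfp821 (52 and 62) had vehicle-only regions near a start too. The 4 sites lay at percentiles 20.4 to 94.4 of the vehicle lists.

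In CD24neg the vehicle library gave Zfp827 its highest-ranked region among these genes (score 323, percentile 99.5) and Zfp799 the next (score 280, percentile 99.3), on the promoter shown above. Among regions within 1000 bp of a start, those of Zfp951 (182), Zfp772 (116), Zfp768 (115) and Zfp738 (112) came next. In CD24high the leading vehicle-only genes were Zfp788 (score 299, percentile 98.2), Zfp787 (221), Zfp939 (204) and Zfp951 (172). Zfp948 held a vehicle-only region at the same site in both populations, with scores of 73 in CD24neg and 107 in CD24high. These values come from a single vehicle library per population.

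The genes with most regions were long. Zfp704 held 12, counting each population, Zfp827 8 (166283 bp; its human counterpart recruits the NuRD complex to telomeres) and Zfp710 6 (67938 bp). Of the 6 genes over 100000 bp, Zfp831 and Zfp800 also held regions, while Zfp993 and Zfp978 on chromosome 4 held none; Zfp800, Zfp993 and Zfp978 were named after their values were seen. Regions in all 3 populations were found in 7 genes, namely Zfp704, Zfp710, Zfp764, Zfp786, Zfp787, Zfp827 and Zfp974, in 2 populations in 12 and in a single population in 27.

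Some sites recurred between populations. Over the 3 pairs of populations, 14 overlapping pairs of regions were found at these genes, among 35 regions in CD24neg, 26 in CD24low and 33 in CD24high. In 8 pairs the arm was the same and in 6 it was opposite, where 48.3% of all 5520 overlapping pairs in the genome were opposite. CD24neg and CD24high shared 6 pairs, all of the same arm, and CD24neg and CD24low 3, all opposite. CD24low and CD24high shared 5, of which 2 were of the same arm and 3 opposite. Genome-wide 35.4%, 53.7% and 60.3% of the pairs in these comparisons were opposite.

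Zfp882 held a site of opposite arms across its start: chr8:71908362-71908905 was G9ai-only in CD24neg, and chr8:71908731-71908868, inside it, vehicle-only in CD24low with scores of 53 and 51. At Zfp871 a site was G9ai-only in CD24high, 1697 bp from the start (scores 101 and 120), and vehicle-only in CD24low, 1684 bp from it (42 and 132). At the upper-coordinate end of Zfp786 the site was G9ai-only in CD24low (61 and 55) and vehicle-only in CD24neg (54) and CD24high (128). The site of highest score in Zfp704 was G9ai-only in CD24high and vehicle-only in CD24low (83 and 84). At Zfp827 the site of score 323 with vehicle in CD24neg was G9ai-only in CD24low (68 and 65). Zfp790, Zfp710 and Zfp831 held sites that recurred in the same arm, such as chr7:80026959-80027191 of Zfp710, G9ai-only in CD24high and CD24neg.

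**Figure D4:**
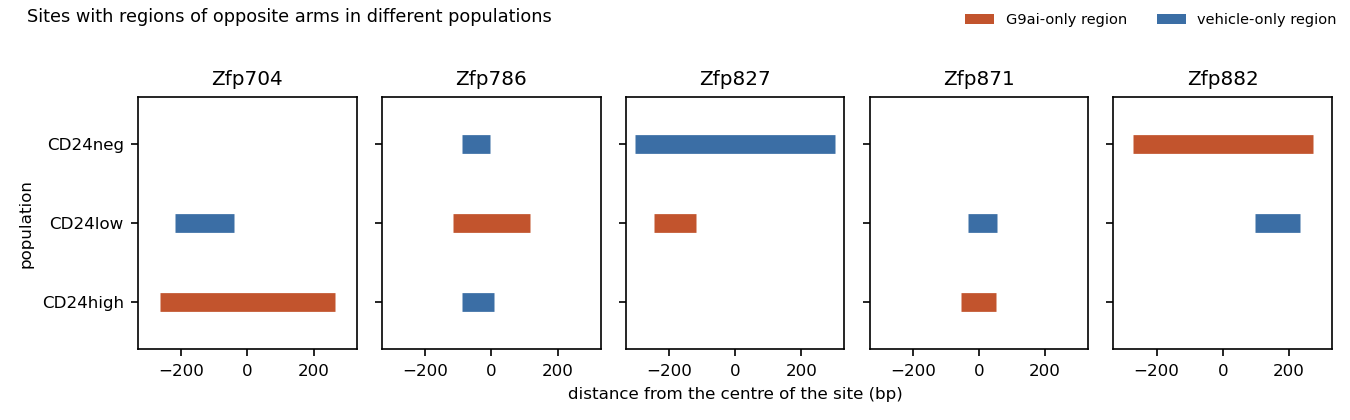
Regions at the 5 genes where overlapping sites belong to opposite arms in different populations, drawn to scale by distance from the centre of the site (bp), 1 row per population, G9ai-only in red and vehicle-only in blue. CD24low differs in arm from CD24neg or CD24high at each of the 5 sites.

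Within 100 kb of another gene of the group lay 71 genes, in 23 runs, and 56 stood alone. Regions were held by 25 of the 71 (35.2%, 32.6 expected from length) and by 21 of the 56 (37.5%, 26.7 expected). Among the shorter genes, 11 of 35 neighbours (13.1 expected) and 9 of 29 lone genes (11 expected) held a region. Among the longer ones 14 of 36 (19.5 expected) and 12 of 27 (15.7 expected) did. By arm and population the neighbours held G9ai-only regions in 7 genes and vehicle-only regions in 6 in CD24neg, 8 and 6 in CD24low, and 3 and 7 in CD24high. The lone genes had 7 and 10, 8 and 4, and 3 and 12. Over all protein-coding genes the G9ai-only and vehicle-only shares were 10.6% and 18.9% in CD24neg, 15.9% and 7.44% in CD24low, and 8.01% and 25% in CD24high. No number expected from length was computed for these counts by arm. Neighbours can share a region, so their counts are not independent.

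The runs differed widely. The largest, 7 genes over 0.429 Mb of chromosome 17 (21565816 to 21994366), had regions in Zfp948, Zfp820, Zfp942 and Zfp943 and none in Zfp983, Zfp760 or Zfp995. A run of 4 on chromosome 7 from Zfp771 to Zfp764 had regions in 3 genes (1.35 expected from length). It had the highest density of the 14 runs with at least 3 genes, 54.9 regions per Mb, against 14.0 over the genome. That run is dense in genes, with 9 protein-coding genes in 0.164 Mb, and the density counts regions outside the group's windows too. Zfp944, Zfp758 and Zfp946 all held one (1.54 genes expected from length). In contrast, 5 of the 14 runs with at least 3 genes, 20 genes in all, had no listed peak in any of the 10 libraries. From length, 1.77 genes with a region were expected in Zfp992 to Zfp993 and 3.64 in Zfp978 to Zfp979, both part of the chromosome 4 array below. In Zfp977 to Zfp975, Zfp868 to Zfp866 and Zfp872 to Zfp810 the expected numbers were 1.47, 1.94 and 1.44.

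The array with most genes and no region lay on chromosome 4. With gaps of up to 500 kb allowed, the 14 genes from Zfp990 to Zfp933, an array named after its values were seen (145510759 to 147849126, 2.34 Mb, 18 protein-coding genes) held 0 regions and 0 listed peaks in all 10 libraries. At the density of the genome 32.7 regions would fall in that length, and 8.18 of the 14 genes would hold one by length. Sites open under both treatments would not appear in these lists. Of the 10 genes there with a promoter in the table, 7 had a promoter at least 90% identical to that of another gene. How reads that fit several copies were placed is not given, and the part of such reads in the absence of peaks was not tested.

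**Figure D5:**
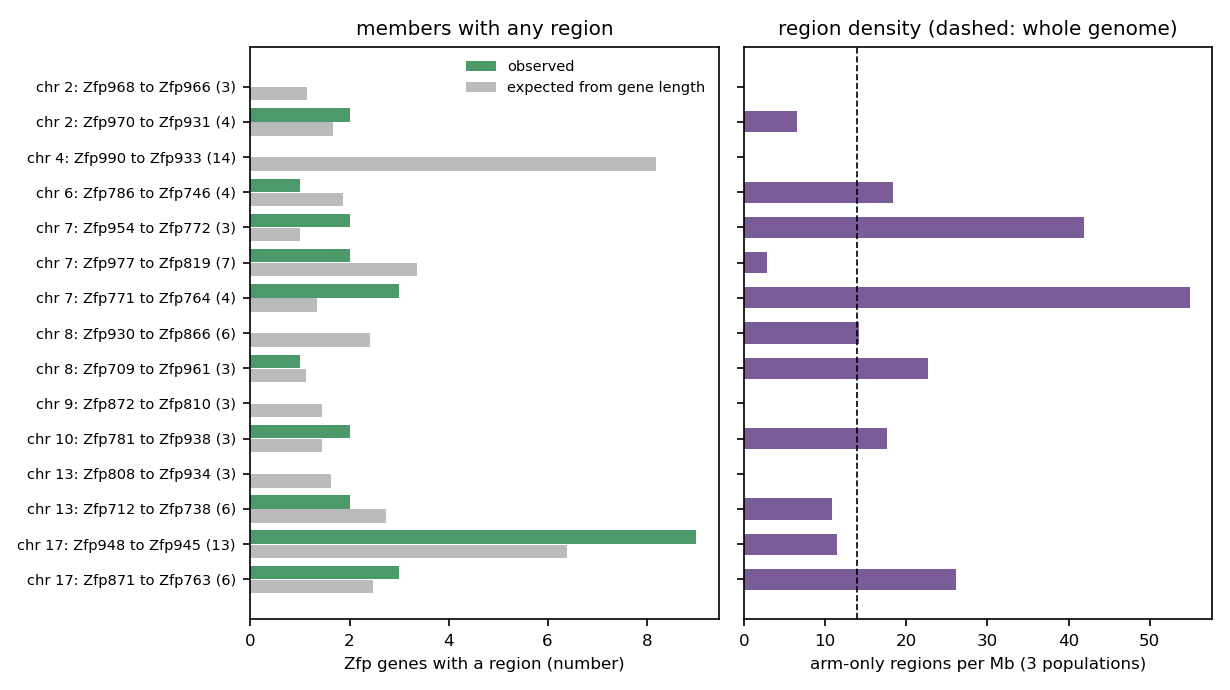
Runs of at least 3 Zfp genes 700 to 999 with gaps of up to 500 kb (number of genes in brackets): genes with any arm-only region beside the number expected from gene length (left), and arm-only regions per Mb summed over 3 populations, with the genome's density dashed (right). The chromosome 4 array has no green bar and no purple bar, against 8.18 genes expected and 14.0 regions per Mb in the genome.

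Over all 111 genes, 31 had a promoter whose middle 200 bases were at least 90% identical to another gene's. Of these 8 held a region (25.8%), namely Zfp758, Zfp942, Zfp943, Zfp944, Zfp951, Zfp970, Zfp971 and Zfp994, against 33 of the 80 without such a copy (41.2%). The share of all protein-coding genes was 43.7%, and no number expected from length was computed for this split. Of the 31 genes, 7 lie in the chromosome 4 array, named after it was seen to hold no region. The lower share thus partly restates that array. Only the middle 200 bases of promoter windows were compared, and regions can lie elsewhere, as a region of Zfp944 did, 8402 bp from the start. Where a region of the 8 genes lies on copied bases, the copy its reads came from is uncertain. Which of their regions do so was not tested.

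The clearest case is on chromosome 17, where Zfp942 and Zfp943 diverge from one promoter and Zfp944 and Zfp758 from another, 399 kb away. The Zfp943 and Zfp758 windows shown above are nearly the same sequence: the middle 200 bases of the Zfp943 window occur with 0 edits in the Zfp758 window. In CD24low the Zfp942 and Zfp943 promoter carried a G9ai-only region (chr17:21962582-21962873, scores 110 and 87 with G9ai, none with vehicle). The Zfp944 and Zfp758 promoter carried a vehicle-only region (chr17:22361493-22361745, none with G9ai, scores 103 and 146 with vehicle). Both regions began at the same base of the copied sequence, and the 20 bases from there to the end of the Zfp758 window were identical. The regions were 292 and 253 bp long, and their identity over the full length was not computed. The 2 arms thus differed in which copy was listed, and whether the copies differ in accessibility or in read placement cannot be told apart from the lists.

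The 81 genes without a region include Zfp809, which in mouse silences murine leukaemia proviruses, and Zfp932, which represses endogenous retroviruses of the ERVK class in mouse embryonic stem cells. Both are named after their values were seen, and most genes of the group held no region. Of 27 cofactor genes of KRAB zinc finger repression and H3K9 methylation, 17 held a region in some population (63%, 14.6 expected from length), where 43.7% of all genes did. G9ai-only regions lay in 4 of them in CD24neg (Atf7ip, Wiz, Chd4, Uhrf1; 3.4 expected from length), in 7 in CD24low (5.12 expected) and in 4 in CD24high (2.56 expected). Vehicle-only regions lay in 6, 2 and 5 (6.28, 2.39 and 8.47 expected). The 2 in CD24low, near the 2.39 expected, were Ehmt2, the gene of the inhibited enzyme, and Dnmt1, the maintenance DNA methyltransferase. Dnmt1 also held a region of the opposite arm, G9ai-only, in CD24high. Trim28, the corepressor itself, held none, and Setdb1, the methyltransferase it recruits, held a vehicle-only region in CD24neg.

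No single gene could pass a test. In CD24low, 24 genes had a listed peak, and an exact two-sided permutation test of the number of peaks (n = 2 libraries per arm) gave p = 0.333 for 23 of them, the smallest value that 2 against 2 libraries allow. In CD24neg and CD24high a single vehicle library allows no test.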

How the data were processed

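ATAC-seq libraries of 10000 sorted cells each were prepared following Corces et al., per the labels' protocols. FastQC, Bowtie2, MACS2 and the mouse build mm10 are named in the submitters' processing notes, and no version, transposase shift, duplicate handling, treatment of reads that fit several places, or peak threshold is stated there. The deposited lists hold peak intervals with the authors' peak score, whose scale is not given. Scores served as percentiles inside their own list, and as a mean over the libraries of an arm to order the genes. Peak names carry a single library name per file, per the file contents, so peaks were called per library. No read counts come with the lists, so depth is unknown.

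Repeated lines (47 to 472 per list) were dropped. Within a population, peaks sharing at least 1 bp were joined across libraries. Regions called G9ai-only had a peak in all G9ai libraries and in none with vehicle; vehicle-only regions had the reverse. Regions were linked to a gene when they overlapped its span in the RefSeq table of GRCm38.p6 (mm10) extended by 1000 bp on either side. The number expected from gene length is the sum, over the genes of the group, of the share of all 21887 nuclear protein-coding genes of the same length class (20 classes) with such a region. Annotated starts came from the RefSeq promoter table, which matched 111 of the 127 genes. Measuring from these starts, and the comparison of promoter copies, were chosen after seeing the data. Promoter copies were compared by the number of edits (edlib) needed to place the middle 200 bases of a window in another gene's window, on either strand.

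The genes of the group and the lists were chosen with earlier results of these data known, so counts are set beside the background without a p. Exact two-sided permutation tests were run per gene in CD24low, the population with 2 libraries in each arm. The text names up to 8 genes per population and arm by mean score, genes with regions in several populations, in both arms or near a gene end, and the largest run of neighbours; other names are marked as chosen after their values were seen. Region calls and gene links were tested on simulated CD24low peaks, where 200 of 200 planted regions were recovered. These were planted in all libraries of a single arm, with no other peaks. The simulation thus checks the code and cannot show how often real peaks are miscalled. Intervals are 95% Wilson intervals and cover counting error only. Python 3.11.15, pandas 2.3.3 and scipy 1.17.1 were used. Alternatives were the gene window, the peaks used, the overlap, the region call, the libraries and the neighbour distance. Samples without a list were not analysed here.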

Additional observations from a re-analysis of the deposited data

Results flagged for a closer look

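At 5 genes, sites overlapped between populations while the arm was opposite in every library, and the difference between populations was not tested. The overlap was 138 bp at Zfp882 (G9ai-only in CD24neg, vehicle-only in CD24low), 87 bp at Zfp871 and 181 bp at Zfp704 (both G9ai-only in CD24high, vehicle-only in CD24low) and 128 bp at Zfp827 (G9ai-only in CD24low, vehicle-only in CD24neg). At Zfp786 the G9ai-only region of CD24low overlapped the vehicle-only region of CD24neg by 87 bp and that of CD24high by 97 bp. Each of these comparisons involves CD24neg or CD24high, which have a single vehicle library.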

How the results depend on the processing

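Of 228 values recomputed under alternatives, 196 were classed as the same, 32 moved and 0 reversed. Counts were held to 1.5 times, shares of listed peaks to 1 SD, and shares near gene ends to the Wilson interval. That SD came from 2 replicate lists sharing nearly all peaks (0.00398 to 0.283 per 1000). The single vehicle libraries have no SD, so any change of their share was classed as moved. The moved shares of listed peaks are therefore no measure of instability. The per-gene differences in CD24low were checked for a change of sign only. Only they could be classed as reversed, so the 0 does not cover the other values. The counts of genes that moved were all lower, with fewer peaks or a narrower window. With 1000 bp around gene ends they were 7 (G9ai-only) and 9 (vehicle-only) in CD24neg and 2 (G9ai-only) in CD24high. In the higher-scoring 50% of peaks they were 7 in CD24neg (G9ai-only), 3 and 5 in CD24low (G9ai-only and vehicle-only), and 2 and 9 in CD24high. With equal list lengths of 2552 peaks they were 9 and 5 in CD24neg, 3 (G9ai-only) in CD24low and 5 (vehicle-only) in CD24high. Leaving out each G9ai library in turn, or each vehicle library of CD24low, changed no count by over 1.5 times. Replicate lists shared 98.2% to 99.6% of their peaks as deposited, so this could hardly come out otherwise and is no check of replicates. The single vehicle libraries of CD24neg and CD24high could not be left out. Over the settings the ratio of observed to expected genes ran from 0.902 to 1.66 (G9ai-only) and 0.543 to 1.04 (vehicle-only) in CD24neg, 0.429 to 1.43 and 0.858 to 1.66 in CD24low, and 0.497 to 0.71 and 0.467 to 1.0 in CD24high.

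Peaks in these genes per 1000 listed peaks, in CD24neg G9ai, CD24neg vehicle, CD24low G9ai and CD24high vehicle, were 3.36, 2.03, 2.04 and 1.62 with the gene span only. Around gene ends they were 1.68 and 0.902 (CD24neg G9ai and vehicle), 1.49 and 2.54 (CD24low), and 0.712 and 1 (CD24high), so the order of the arms turned in CD24high. In the higher-scoring 50% they were 4.81 and 2.71, 1.77 in CD24low G9ai, and 4.28 and 1.69; with equal lengths 4.51 and 2.35, 2.16 in CD24low G9ai, and 2.94 and 1.96. With replicate numbers 2 and 3 taken as a block in CD24low, the differences in peak number of all 24 genes were the same and the smallest exact permutation p was 0.5 (0.333 without the block); the labels give no sign that the numbers pair mice. The cause of these shifts was not tested. Depth is unknown, so absence from a list is no sign of closed chromatin.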

Other observations

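The promoters of the group differed in base content. Taking the window richest in CpG where a gene had several, they held a median of 10 CpG sites in 300 bases, against 15 over all 17492 genes of the table, and the 23 with a listed region held a median of 16, against 9 in the other 88. CCAAT, the letters of the NF-Y motif, occurred on either strand in 67.6% of the 111 genes, against 42.3% of all genes and 44.8% of the Zfp genes below 700. GGGCGG occurred in 41.4% (49.2% of all genes), CCGGAAG in 17.1% (12.9%), TGACGTCA in 1.8% (2.54%) and the NRF1 motif, searched without mismatch, in 1.8% (1.47%). No motif searched contains another. AAGATGGCG, the core letters of the YY1 motif, was found in the promoter of a single gene, Zfp882. It is held by 2.14% of all genes and 4.64% of the Zfp genes below 700. In Zfp882 it occurs 2 times on the reverse strand inside the G9ai-only region of CD24neg. CCAAT was held by 13 of the 23 promoters with a listed region. These matches describe letters in the windows, not binding.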
